A study of Mus musculus with 6 samples.

Results

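The genes described here are 9 genes of the primitive red blood cell programme: the embryonic globin genes Hba-x, Hbb-bh1 and Hbb-y, the transcription factor genes Gata1, Klf1, Gfi1b, Runx1 and Tal1, and Alas2, a gene of haem synthesis. They were represented by every probe set annotated with 1 of these symbols, 18 probe sets of 45037 in all, and 9 genes of 18193. The tissue was the node with the primitive streak, dissected from mouse embryos at embryonic days 7.75 to 8 (0 to 2 somites), all on a mixed C57BL/6 and 129/Sv background. There were 3 pools of Wnt3a null embryos and 3 pools of wild-type embryos, each pool holding amplified RNA of 3 embryos of 1 genotype and matched stage, hybridised to 1 array. Wnt3a is a secreted signalling protein made in this region, and the tissue was dissected before mutant embryos can be told apart by shape. The sources used here do not say which part of Wnt3a the null allele removes.

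Primitive red blood cells are the first blood cells of the mouse embryo. They arise from mesoderm that leaves the posterior primitive streak and gathers in the blood islands of the yolk sac. Their precursors thus pass through the streak, whereas the maturing cells lie outside the dissected region. The labels do not say whether such precursors were still in the streak at the stage sampled. Tal1 works in a protein complex with Lmo2, Ldb1 and a GATA factor and is needed for all blood. Gata1, Klf1 and Gfi1b act later, in red cell precursors, where they switch on globin and haem genes or repress other genes. Runx1 marks early blood cells and is needed for the later, definitive blood lineages.

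The promoters of 3 genes are shown because they carry both letter groups that red cell factors are known to bind and because they stand for the output of the programme, globin and haem. The windows are the 250 bases before the annotated start, from RefSeq sequence of GRCm38.p6, printed 5′ to 3′ on the strand of the gene. Capitals mark matches, on either strand, to the GATA motif (AGATAA or AGATAG, or with T as the first letter, TGATAA or TGATAG) and to CACCC, the core of the Klf1 motif. The windows are chr11:32276350-32276599 (plus strand) for Hba-x, chr7:103853208-103853457 (minus strand) for Hbb-y and chrX:150547167-150547416 (plus strand) for Alas2.
Hba-x: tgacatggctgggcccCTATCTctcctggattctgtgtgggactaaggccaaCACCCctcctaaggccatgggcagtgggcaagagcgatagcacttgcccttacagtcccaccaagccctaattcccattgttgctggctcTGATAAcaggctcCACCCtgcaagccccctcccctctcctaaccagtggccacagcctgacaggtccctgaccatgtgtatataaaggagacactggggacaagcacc
Hbb-y: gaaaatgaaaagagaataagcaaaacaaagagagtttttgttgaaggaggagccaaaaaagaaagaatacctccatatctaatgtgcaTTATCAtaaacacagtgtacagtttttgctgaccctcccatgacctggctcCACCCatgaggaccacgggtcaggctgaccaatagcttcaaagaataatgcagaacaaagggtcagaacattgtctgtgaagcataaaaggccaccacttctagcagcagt
Alas2: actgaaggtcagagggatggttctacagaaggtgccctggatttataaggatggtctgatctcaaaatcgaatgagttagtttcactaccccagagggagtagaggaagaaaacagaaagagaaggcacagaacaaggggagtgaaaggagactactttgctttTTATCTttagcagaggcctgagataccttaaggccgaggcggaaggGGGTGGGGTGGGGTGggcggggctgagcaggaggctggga

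Hba-x held 2 GATA and 2 CACCC matches, Hbb-y held 1 of each, and Alas2 held 1 GATA and 3 CACCC matches. The matches to the GATA motif did not overlap those to CACCC in these windows. Over 10 annotated starts of 8 members, 6 windows held a GATA match and 8 a CACCC match. Of all 32851 annotated windows of the same length, 26.5% held a GATA match and 52.0% a CACCC match. The letters CANNTG, the E-box that Tal1 binds with its partners, were in 5 of the 10 windows and in 66.2% of all windows. TGTGGT, a form of the Runx1 motif, was in 1 of the 10, that of Klf1, and in 14.1% of all. Hbb-bh1 and Hbb-y lie 8591 bases apart on chromosome 7 with no annotated gene between them, and Hba-x lies on chromosome 11. Gata1 and Alas2 are on the X chromosome.

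The 6 arrays had median signals of 73.7 to 86.4. Signals are the deposited linear intensities. The listed markers of the node and primitive streak were well measured: 14 of 16 genes exceeded, on all 6 arrays, the 95th percentile of olfactory receptor probe sets, a group of genes not known to be made in this tissue. That percentile was 61.6 to 68.2 on the null arrays and 57.9 to 82.7 on the wild-type arrays, over 44 probe sets. Wnt3a itself had signals of 961, 761 and 1009 in null pools and 864, 1058 and 996 in wild-type pools, with overlapping groups, so it cannot serve to check the genotypes. Axin2, a feedback target of Wnt signalling, had 1291, 1224 and 1289 in null pools and 2602, 2806 and 2472 in wild-type pools. The pools differed in sex composition: Xist, which is made from the inactive X, had 5047, 1871 and 2707 in null pools and 7440, 2054 and 2408 in wild-type pools, and the Y-linked Eif2s3y had 1053 to 1788 in null pools and 4.31, 1325 and 1448 in wild-type pools.

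Most red blood cell genes gave little signal in this tissue in either genotype. Of the 18 probe sets, 2 exceeded the olfactory receptor percentile on all 6 arrays, 1 of Tal1 and 1 of Runx1, whereas 43.4% of all probe sets did so. On no array did 8 of the 18 exceed it: the Hba-x probe set, all 3 of Hbb-y, 1 of Hbb-bh1, the Gfi1b probe set and 2 of Runx1. Over the whole array 14774 of 45037 probe sets exceeded it on no array. Probe sets differ in how brightly they report a transcript, so this only describes how dim these were. In null pools 8, 7 and 8 of the 18 exceeded the percentile of their own array, against 5, 3 and 5 in wild-type pools. The groups did not overlap in this count, as the arrays of the genotypes did not in 9.98% of all single probe sets. Probe sets of 1 gene are not independent, and 6 of the 18 are of Runx1. Over all probe sets, 53.4% to 55.5% exceeded it in null pools and 49.5% to 55.4% in wild-type pools. With 1 common bound, a signal of 69.0 for every array, the counts were 8, 7 and 8 in null pools and 3, 6 and 5 in wild-type pools. The counts of wild-type pools 1 and 2 thus depended on the bound. In whole tissue, fewer cells of a type and less RNA per cell cannot be told apart.

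**Figure D1:**
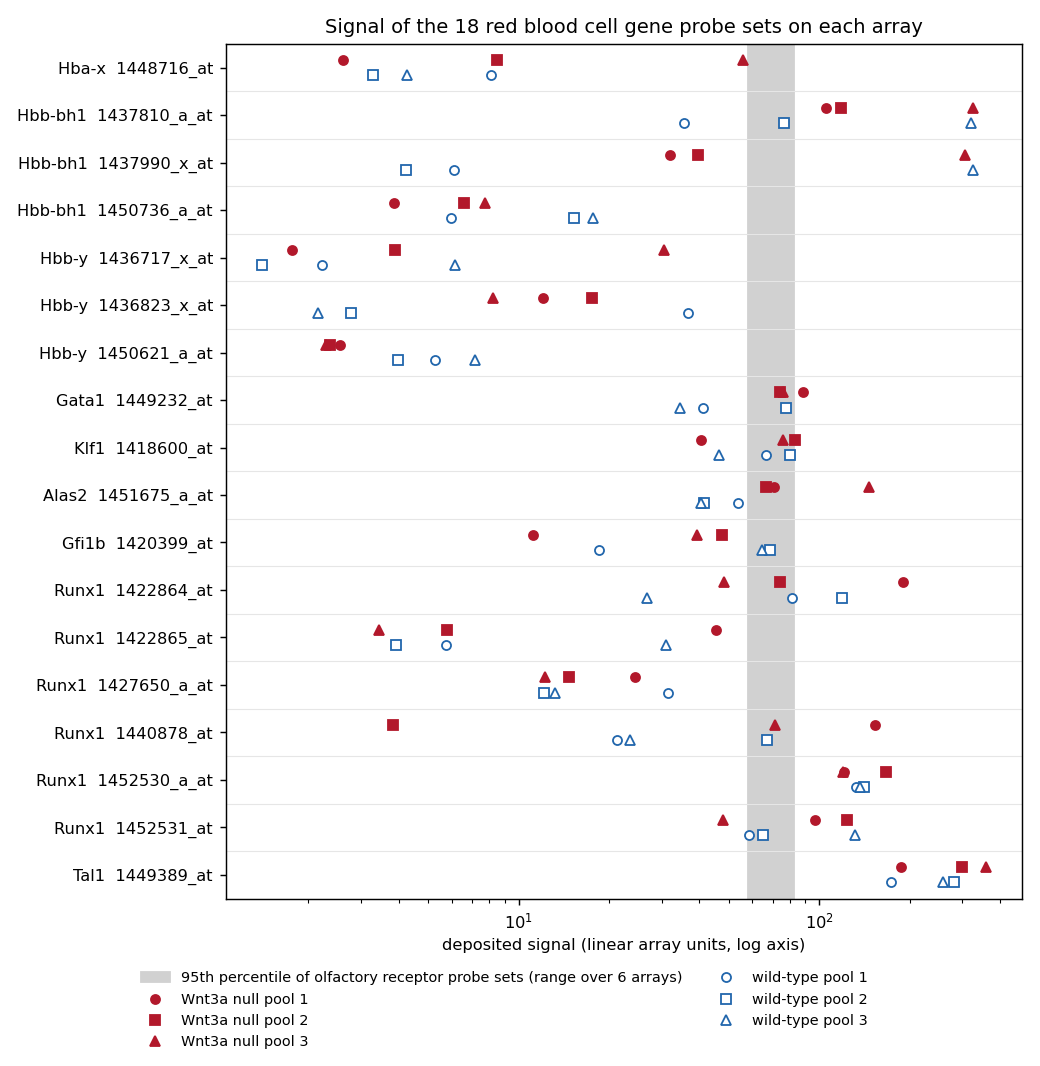
Deposited signal of each of the 18 probe sets (rows, by gene) on a log axis, with filled symbols for the 3 Wnt3a null pools and open symbols for the 3 wild-type pools. The grey band is the range over arrays of the 95th percentile of olfactory receptor probe sets, 57.9 to 82.7. The Tal1 probe set and 1 Runx1 probe set lie to its right on all 6 arrays, and the globin probe sets lie mostly to its left.

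Hbb-bh1, the embryonic beta-type globin that dominates in the first red cells, had its highest signals in pool 3 of both genotypes on all 3 probe sets, by a wide margin on 2 of them. In pools 1 and 2 those 2 probe sets were higher in null than in wild type. Probe set 1437810_a_at had signals of 106, 118 and 325 in null pools and 35.5, 76.5 and 320 in wild-type pools. Pool 3 was the highest of both genotypes, and the genotypes overlapped. Probe set 1437990_x_at had 32.0, 39.5 and 305 in null pools and 6.12, 4.22 and 326 in wild-type pools, again with pool 3 highest. In 1437810_a_at pool 3 exceeded the next pool 2.76-fold among null pools and 4.19-fold among wild-type pools. In 1437990_x_at the same ratios were 7.71-fold and 53.3-fold, the second over a pool with a signal of a few units. In the third probe set, 1450736_a_at, pool 3 exceeded the next pool 1.18-fold among null pools and 1.15-fold among wild-type pools. It had 3.85, 6.60 and 7.76 in null pools and 5.96, 15.3 and 17.7 in wild-type pools, near the low end of the arrays. The suffix x marks probe sets whose probes can also match related transcripts, so 1437990_x_at may report other globins as well.

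A pool 3 signal above both other pools by at least 1 on the log2 scale in both genotypes was found in 3 of the 18 probe sets, the 2 above and the Hbb-y probe set 1436717_x_at, and in 0.702% of all probe sets. Pools 1 and 2 stood out in this way in 0 of the 18. This description was made after the values were seen, and the 3 probe sets can share transcripts. The Hbb-y probe set was dim, with wild-type signals of 2.22, 1.40 and 6.13, and exceeded the olfactory receptor percentile on no array. The other Hbb-y probe sets did not have this pattern. Of genes represented by their brightest probe set, and at or above the median signal, Hbb-bh1 was the only one with this pattern. The labels do not say what pools of 1 number share. Summed signals of 13 visceral and yolk sac endoderm genes, the tissue next to the blood islands, were 49930, 63838 and 73246 in null pools and 42745, 108670 and 55884 in wild-type pools. They were highest in wild-type pool 2, where the 2 Hbb-bh1 probe sets had 76.5 and 4.22. Whether carried-along yolk sac tissue has a part in the Hbb-bh1 values was not tested.

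Between genotypes, no difference in Hbb-bh1 passed the test. The log2 difference, null minus wild type, was 0.74 (95% interval -1.53 to 3.02) for 1437810_a_at, 1.84 (-2.92 to 6.60) for 1437990_x_at and -1.01 (-2.30 to 0.28) for 1450736_a_at, each with limma's adjusted p = 1.00 over all probe sets. Within pool numbers, 1437810_a_at differed by 1.57, 0.63 and 0.02 in pairs 1, 2 and 3, and 1437990_x_at by 2.39, 3.23 and -0.10. The third probe set, 1450736_a_at, went the other way, by -0.63, -1.22 and -1.19. Thus 1437810_a_at was higher in null in 3 of 3 pairs, as in 15.0% of all probe sets, and 1450736_a_at was lower in 3 of 3, as in 13.7%. With the replicate number as a block the interval of 1450736_a_at was -1.68 to -0.34 (unadjusted p = 0.0160, limma's adjusted p = 0.825), and on the scale of log2(signal + 50) its difference was -0.16. With that block the intervals of 1437810_a_at and 1437990_x_at were -0.43 to 1.91 and -0.56 to 4.24. With limma's trend and robust options joined to the block they were -0.0032 to 1.49 and 0.19 to 3.49. Under those options the interval of 1450736_a_at was -3.1 to 1.08, and none of these probe sets passed after adjustment. Without wild-type pool 1 the difference of 1437810_a_at was 0.03.

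**Figure D2:**
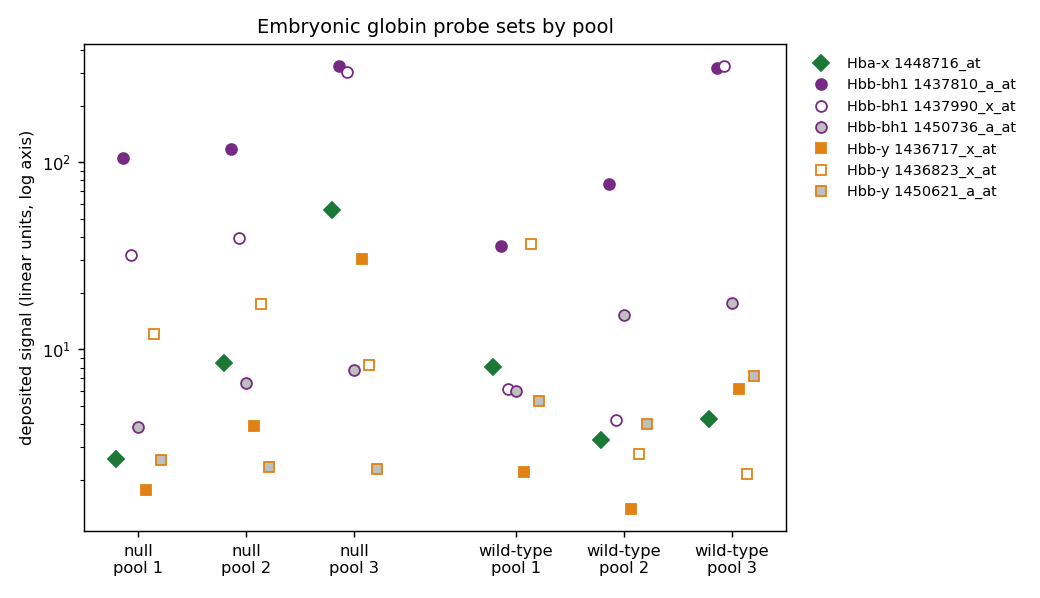
Deposited signal (log axis) of the 7 probe sets of Hba-x, Hbb-bh1 and Hbb-y in each of the 3 Wnt3a null pools (left) and 3 wild-type pools (right). In pool 3 of both genotypes 2 Hbb-bh1 probe sets lie between 305 and 326, while the third stays at 7.76 and 17.7, and Hba-x and 1 Hbb-y probe set are higher in null pool 3 than on the other 5 arrays.

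Hba-x, the embryonic alpha-type globin (zeta) gene, had signals of 2.61, 8.48 and 55.6 in null pools and 8.07, 3.28 and 4.25 in wild-type pools. Null pool 3 stood apart, and the other 5 arrays lay under 9. The log2 difference was 1.15 (SE 1.15, limma's adjusted p = 1.00) and -0.04 without null pool 3. Hbb-y, the epsilon-type embryonic globin gene, had a similar pool on 1436717_x_at, with 1.76, 3.88 and 30.4 in null pools and 2.22, 1.40 and 6.13 in wild-type pools. Its second probe set, 1436823_x_at, had 12.1, 17.5 and 8.24 in null pools and 36.7, 2.77 and 2.15 in wild-type pools, so wild-type pool 1 was highest there. The third, 1450621_a_at, had 2.55, 2.35 and 2.30 in null pools and 5.27, 3.98 and 7.18 in wild-type pools. All null values were below all wild-type values, as in 4.41% of all probe sets. It had the smallest p of the 18 probe sets, with a log2 difference of -1.15 (unadjusted p = 0.00688, limma's adjusted p = 0.695), although 0.999% of probe sets were dimmer by mean log2 signal. On the scale of log2(signal + 50) its difference was -0.08. The 3 Hbb-y probe sets thus disagreed in sign, 2 higher and 1 lower in null.

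Tal1, the master regulator of blood specification, was above the olfactory receptor percentile on all 6 arrays. Its signals were 188, 298 and 360 in null pools and 173, 282 and 258 in wild-type pools. The groups overlapped, and in each pair the null pool was the higher, by 0.12, 0.08 and 0.48 on the log2 scale. Tal1 averaged 282 ± 87.2 over the 3 null pools, against 238 ± 57.2 over the 3 wild-type pools (SD), a log2 difference of 0.23 (95% interval -0.64 to 1.09, limma's adjusted p = 1.00). Single arrays moved this value: it was 0.014 without wild-type pool 1, 0.025 without null pool 3 and 0.49 without null pool 1.

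Runx1, a DNA-binding factor of early blood cells, was represented by 6 probe sets that did not behave alike. The brightest by mean, 1452530_a_at, had 121, 167 and 120 in null pools and 133, 141 and 137 in wild-type pools. The wild-type values lay inside the null range, and the log2 difference was -0.03 (95% interval -0.59 to 0.53), the narrowest interval of the 18. Probe set 1452531_at had 97.0, 124 and 47.9 in null pools and 58.7, 65.1 and 132 in wild-type pools, a difference of 0.06 (SE 0.50). Probe set 1422864_at had 191, 74.1 and 48.3 in null pools and 81.0, 119 and 26.7 in wild-type pools, and 1440878_at had 154, 3.84 and 71.3 in null pools and 21.2, 67.1 and 23.4 in wild-type pools. Null pool 1 was highest on both. The remaining probe sets, 1422865_at and 1427650_a_at, ran from 3.43 to 45.5 and from 12.2 to 31.5 over the 6 arrays. Of the 6 differences 4 were above 0 and 2 below, from -0.07 to 0.47, and each interval contained 0.

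Null pool 1 also stood out for some other genes of endothelial and blood progenitors, but not for all. In Kdr, Etv2, Lmo2 and Tal1, by contrast, it was the lowest of the null pools. Kdr had 572, 623 and 663 in null pools, Etv2 817, 1196 and 1085, and Lmo2 271, 507 and 341. Cd34, a surface protein of both cell types, had 552, 65.7 and 42.2 in null pools and 68.3, 26.7 and 73.2 in wild-type pools. Myb, a regulator of definitive blood progenitors, had 964, 215 and 342 in null pools and 293, 136 and 233 in wild-type pools. Among 17 endothelial and blood progenitor surface genes 9 were highest on the null pool 1 array, and among 18 white blood cell, macrophage and platelet markers 10 were, against 18.9% of all genes. Of the 18 red blood cell gene probe sets 4 were, or 22.2%, near the 19.5% of all probe sets. All but 1 of these 4 were Runx1 probe sets, while the brightest Runx1 probe set, 1452530_a_at, was highest in null pool 2. Cd34 and Myb were chosen after their values were seen, as were the genes set against them. The part of this pool in the Runx1 values was not tested.

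Gata1, the central red cell transcription factor, had 88.3, 74.1 and 75.8 in null pools and 41.2, 77.4 and 34.6 in wild-type pools. The null pools were close to each other, and wild-type pool 2 lay within their range. The log2 difference was 0.72 (95% interval -0.16 to 1.60, limma's adjusted p = 1.00), with pairs at 1.10, -0.06 and 1.13. Klf1, an activator of globin genes, had 40.4, 83.1 and 75.7 in null pools and 66.6, 80.3 and 46.3 in wild-type pools. The difference was 0.01 (-0.94 to 0.96), and the pairs went both ways, from -0.72 to 0.71. Gfi1b, a repressor needed in red cell and platelet precursors, had 11.2, 47.6 and 39.3 in null pools and 18.6, 68.5 and 64.5 in wild-type pools. In each pair the null pool was the lower, by -0.73, -0.53 and -0.71 on the log2 scale, as in 13.7% of all probe sets, while pool 1 was the lowest of both genotypes. Its difference of -0.66 did not pass (95% interval -2.60 to 1.28, limma's adjusted p = 1.00), nor did it with the replicate number as a block (unadjusted p = 0.0271, adjusted p = 0.837). On the scale of log2(signal + 50) the Gfi1b difference was -0.27. Without null pool 1 alone it was -0.0062 on the log2 scale, but that fit keeps wild-type pool 1, which was also low. Pairs 2 and 3, which hold no pool 1, differed by -0.53 and -0.71.

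Alas2, the red cell enzyme of the first step of haem synthesis, was the member whose null pools all lay above the wild-type pools. Its signals were 71.0, 66.4 and 146 in null pools and 53.9, 41.4 and 40.5 in wild-type pools. In 5.57% of all probe sets the null pools all lay above the wild-type pools. The log2 difference was 0.98 (95% interval 0.05 to 1.91), with an unadjusted p of 0.0424 and limma's adjusted p = 0.987. The interval contained zero with the replicate number as a block (-0.18 to 2.14) and after quantile normalisation (-0.05 to 1.93). With array weights it did not (0.14 to 2.11). All 3 wild-type values were under the olfactory receptor percentile of their arrays, so no fold is given. Without null pool 3 the log2 difference was 0.61, and on the scale of log2(signal + 50) it was 0.56 (95% interval 0.04 to 1.08). Among wild-type pools, Xist, which tracks the sex of the pooled embryos, and Alas2 were both highest in pool 1. Among null pools Xist was highest in pool 1 and Alas2 in pool 3. The part of sex composition in the values of the X-linked Alas2 and Gata1 was not tested.

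Over the 18 probe sets, 0 passed limma's test at an adjusted p of 0.05, as did 0% of all 45037. Axin2 did not pass either, with a log2 difference of -1.05 (limma's adjusted p = 0.425). Not passing therefore does not show that a gene was unchanged. At an unadjusted p under 0.05 there were 2 of the 18, 1 higher (Alas2) and 1 lower (Hbb-y), against 5.05% of all probe sets. The groups did not overlap for the same number, 11.1% of the 18, against 9.98% of all. The mean log2 signal was higher in null for 13 of 18, against 51.7% of all, and the median log2 difference was 0.18, against 0.01 over all probe sets. The share of separated probe sets was near the background. With the replicate number as a block, 3 of the 18 had an unadjusted p under 0.05, against 5.86% of all probe sets, and 0 passed after adjustment. These 3 were Hbb-bh1 1450736_a_at, Hbb-y 1450621_a_at and Gfi1b, each lower in null. Alas2 was not among them (limma's unadjusted p = 0.0767 with the block). The standard error had a median of 0.64 over the 18 and 0.39 over all probe sets, and in 2 of the 18 the 95% interval lay within 1 of zero on the log2 scale (Klf1 and Runx1 1452530_a_at), against 36.3% of all. For the others the interval reached past 1 in at least one direction.

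**Figure D3:**
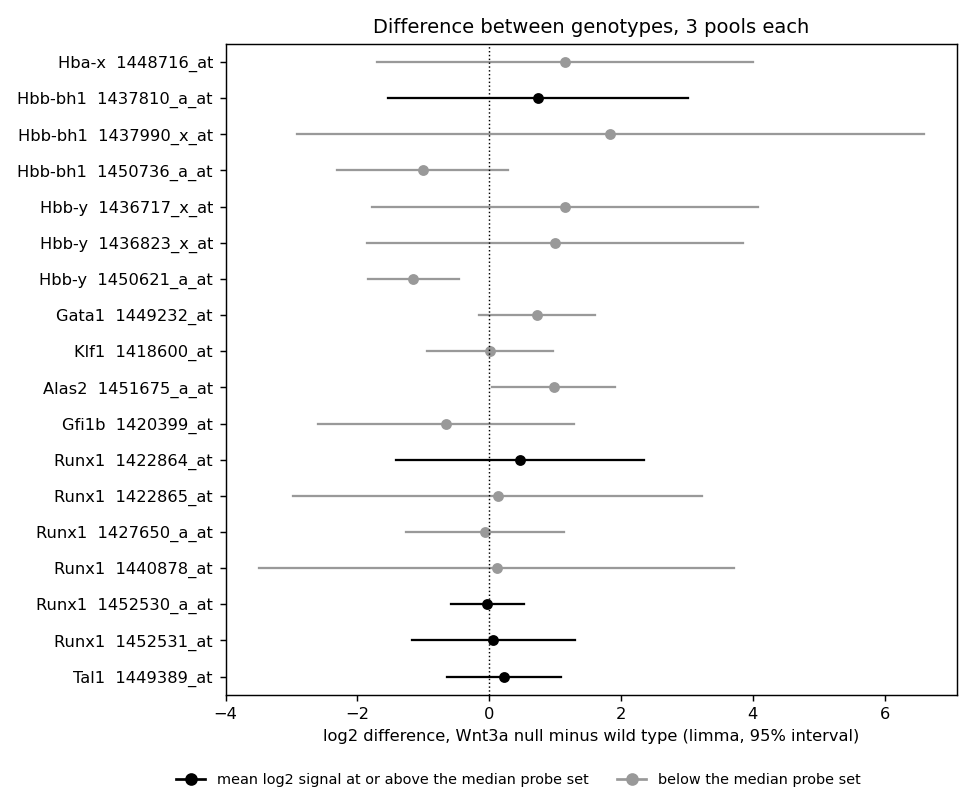
Log2 difference between 3 Wnt3a null and 3 wild-type pools for each of the 18 probe sets, as points with limma's 95% intervals, in black where the mean log2 signal reached that of the median probe set and in grey below it. Intervals contain zero except for Hbb-y 1450621_a_at and Alas2, and they are widest for Hbb-bh1 1437990_x_at (-2.92 to 6.60).

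The partners of these genes were measured in the same fit, each by its brightest probe set. Of 21 transcription factor partners 16 were higher in null by mean and 5 lower, with a median log2 difference of 0.33 and 0 passing. Lmo2, the adaptor that binds Tal1, went the other way: it had 271, 507 and 341 in null pools and 693, 633 and 672 in wild-type pools, with all null values below all wild-type values. Its difference was -0.88 (unadjusted p = 0.0235, limma's adjusted p = 0.930). Fli1, an ETS factor of blood and vessel progenitors, had 161, 156 and 220 in null pools and 64.3, 81.9 and 158 in wild-type pools, a difference of 0.91 that did not pass (adjusted p = 1.00). Bcl11a, a regulator of globin switching in later blood, had 0.89 (adjusted p = 1.00).

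The haem pathway beyond Alas2 was well measured, and its differences were small. All 13 measured genes exceeded the olfactory receptor percentile on all 6 arrays. By mean 10 were higher and 3 lower in null, the median log2 difference was 0.14, and 0 passed. The groups did not overlap for 3 of the 13 (23.1%), 2 with null above and 1 with null below, against 10.1% of all genes. Differences ran from -0.24 for Urod, with 3202, 3279 and 3351 in null pools and 4023, 3835 and 3746 in wild-type pools, to 0.44 for Slc25a37, the mitochondrial iron carrier mitoferrin, with 326, 320 and 406 in null pools and 277, 192 and 319 in wild-type pools. The list joins enzymes that all haem-making cells use with carriers, such as Slc25a37, known mainly from red cells.

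Red cell membrane, receptor and enzyme genes were mixed. Of 19 measured 12 were higher and 7 lower in null by mean, the median log2 difference was 0.17 and 0 passed. Of these genes 5 exceeded the olfactory receptor percentile on all 6 arrays and 4 on none. Among the 4 was Slc4a1, the anion exchanger band 3, with 13.0, 28.8 and 13.1 in null pools and 12.3, 3.39 and 20.6 in wild-type pools. Sptb, the red cell spectrin beta chain, exceeded it on 5 arrays, with 50.2, 139 and 93.4 in null pools and 97.7, 123 and 156 in wild-type pools, a difference of -0.51 (adjusted p = 1.00). Ank1, the ankyrin that ties spectrin to the membrane, had 119, 166 and 88.9 in null pools and 64.0, 12.2 and 50.9 in wild-type pools, with all null values above all wild-type values. Its difference was 1.82 (unadjusted p = 0.0410, limma's adjusted p = 0.987). Blvrb, an enzyme of haem breakdown, had 108, 141 and 97.0 in null pools and 64.6, 84.0 and 48.0 in wild-type pools, a difference of 0.83 (unadjusted p = 0.0339, limma's adjusted p = 0.974). The list of other globins had 6 measured genes, Hba-a1, Hba-a2, Hbb-b2, Mb, Cygb and Ngb, and no globin chaperone. Of these, Mb, Cygb and Ngb are genes of globins outside haemoglobin. Hba-a1, an adult alpha globin gene, had 8.15 to 17.4 in null pools and 5.65 to 33.2 in wild-type pools. Hba-a2 had 199, 142 and 122 in null pools and 133, 152 and 98.8 in wild-type pools. In this list 5 were higher and 1 lower in null by mean, with a median of 0.22 and 0 passing.

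Neighbouring mesoderm lists were likewise without a call. Of 17 endothelial and blood progenitor surface genes 15 were higher in null by mean, with a median log2 difference of 0.44, and of 11 extraembryonic mesoderm and allantois genes 9 were, with a median of 0.22. Kdr, the receptor that marks the common precursors of blood and vessels, had 572, 623 and 663 in null pools and 355, 527 and 464 in wild-type pools. Etv2, a factor that acts upstream of Tal1 in these precursors, had 817, 1196 and 1085 in null pools and 706, 1162 and 582 in wild-type pools, and was named after its values were seen. Among white blood cell, macrophage and platelet markers 14 of 18 were higher, with a median of 0.50 and summed signals of 1340 to 2438 in null pools and 1012 to 1345 in wild-type pools. The pan-leukocyte gene Ptprc had 32.9 to 46.2 in null pools and 8.41 to 27.1 in wild-type pools, with all null values above all wild-type values and all 6 under the olfactory receptor percentile. S100a9, a granulocyte gene with the smallest p of that list, went the other way, with 5.61, 23.9 and 5.13 in null pools and 29.6, 48.5 and 40.3 in wild-type pools, also all under the percentile (log2 difference -2.13, unadjusted p = 0.0192, limma's adjusted p = 0.882). Of 13 visceral and yolk sac endoderm genes 3 were higher, with a median of -0.10, and of 16 node and streak genes 3 were, with a median of -0.60. Single pools moved several of these medians. Without null pool 1 the endothelial and progenitor median was 0.12 and the white blood cell median 0.22. Without wild-type pool 1 the extraembryonic mesoderm median was 0.028, and without wild-type pool 2 the visceral endoderm median was 0.30 and that of the other globin list -0.062. The node and streak median stayed between -0.67 and -0.53 when 1 array was left out. The part of the other cell types in the values of the red blood cell genes was not tested. The lists were chosen with earlier results of these data known.

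**Figure D4:**
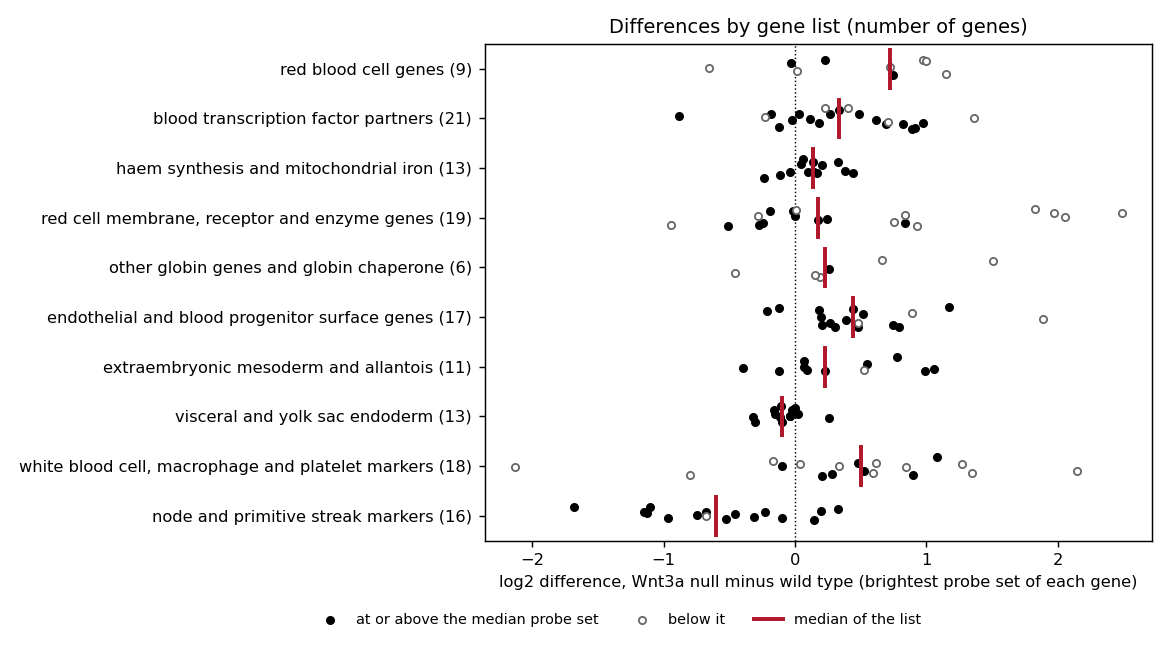
Log2 difference, Wnt3a null minus wild type, of the brightest probe set of each gene, for the 9 red blood cell genes and 9 other gene lists (rows, gene numbers in brackets). Filled points reach the median probe set signal, open points lie below it, and red bars are list medians, from 0.72 for the 9 red blood cell genes, followed by 0.50 for white blood cell, macrophage and platelet markers, to -0.60 for node and streak markers.

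For the 9 genes taken by their brightest probe sets, 7 were higher in null by mean and the median log2 difference was 0.72, against 0.18 over all 18 probe sets. It thus depended on which probe sets were counted, and 3 of the 9 reached the median probe set signal: Hbb-bh1 at 0.74, Tal1 at 0.23 and Runx1 at -0.03. The mean centred log2 profile of the 3 embryonic globins over the 6 arrays was most like that of Mapk4, with a root mean square difference of 0.40, followed by Fabp4 (0.42), Pianp (0.43), Fggy (0.44) and Prr11 (0.48), among genes with a mean log2 signal of at least 7. The profile combined globins that did not share a pattern: in wild-type pool 3 Hbb-bh1 was above its mean by 1.38 on the log2 scale and Hbb-y below it, at -1.98. The Hba-x and Hbb-y probe sets used exceeded the olfactory receptor percentile on no array, and that Hbb-y value was a signal of 2.15. Their part of the profile may thus not describe globin transcripts. With 6 arrays and this many genes, such likeness is a description only.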

How the data were processed

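Transcripts were measured on Affymetrix mouse whole-genome arrays. RNA of single embryos was amplified, then pooled by 3 for a second round and hybridised to 1 array per pool, per the labels' protocols, which gives 9 embryos per genotype. The deposited table holds linear intensities for 45101 probe sets. RMA is named in the submitters' processing notes, yet every array has a mean of 500 once 2% is trimmed from either end, a form that RMA does not give. How the values were made is therefore unsettled. The 64 control probe sets were left out and the deposited intensities were turned to log2, with no floor, filter or further normalisation.

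The genotypes were compared by limma 3.58.1 under R 4.3.3, null minus wild type, over 45037 probe sets, two-sided, with Benjamini-Hochberg adjustment and a threshold of 0.05. Symbols came from the platform annotation: 34945 probe sets have 1 symbol, 932 several and 9160 are not listed; 0 of the several-symbol probe sets name a member. The members were every probe set of 9 symbols. Named genes of other lists were up to 3 per list with the smallest p at or above the median signal (71.5); Slc4a1, Ank1, Hba-a1, Ptprc, S100a9, Etv2, Cd34 and Myb were added after their values were seen. The members and lists were chosen with earlier results of these data known. Likeness used the 5 genes nearest in root mean square to the mean centred profile of the brightest globin probe sets.

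Both genotypes have replicates 1, 2 and 3. Deviations from the genotype means correlated within a number at 0.422, 0.454 and 0.282 over 18088 probe sets with a mean log2 of at least 7 (0.0537, 0.0524 and 0.0338 over all), so same-numbered arrays were treated as pairs in the block. The pools are separate by label; no deposited file gives a detection call. Alternatives were the block, eBayes options, an offset of 50, a filter, 3 normalisations, array weights, leaving out arrays and other probe set rules. The fit was also run on simulated data with changes of known size, and no result of that run is used here.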

Additional observations from a re-analysis of the deposited data

How the results depend on the processing

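No red blood cell gene probe set passed limma's adjusted threshold under any setting tried, and their smallest adjusted p ran from 0.407 to 1.00 over the settings. With the replicate number as a block, 0 of 45037 probe sets passed, and the block changed no call. Over all probe sets 1 passed with the trend and robust options, and 22 passed when these were joined to the block. Directions near zero depended on the setting. Klf1, at 0.013, was -0.040 after median centring, -0.014 after quantile normalisation and -0.027 after cyclic loess. With array weights Runx1 1422865_at was -0.47 and 1452531_at -0.19, and the mean of all Runx1 probe sets was 0.11, against -0.03 for the brightest. Leaving out 1 array at a time changed the sign for 9 probe sets. Hba-x ran between -0.036 and 2.17, Hbb-y 1436717_x_at ran between -0.028 and 2.03, Klf1 ran between -0.21 and 0.34, and Runx1 1422864_at ran between -0.16 and 0.92. Runx1 1422865_at ran between -0.99 and 1.03, Runx1 1427650_a_at ran between -0.36 and 0.37, Runx1 1440878_at ran between -0.96 and 1.70, Runx1 1452530_a_at ran between -0.19 and 0.050, and Runx1 1452531_at ran between -0.22 and 0.46. Leaving out 1 replicate number of both genotypes, chosen after seeing the data, also turned signs. Without number 1 these were -1.30 for Runx1 1422865_at, 0.082 for Runx1 1427650_a_at, -1.26 for Runx1 1440878_at, 0.025 for Runx1 1452530_a_at, -0.27 for Runx1 1452531_at. Without number 2 these were -0.0059 for Klf1, -0.092 for Runx1 1422865_at, -0.37 for Runx1 1452531_at. Without number 3 these were -0.13 for Hba-x, -0.34 for Klf1, -0.64 for Runx1 1440878_at, 0.051 for Runx1 1452530_a_at. The causes were not tested. Signals near background on most arrays, and 3 arrays per genotype, limit what these data can show for the globins, Gata1, Klf1, Gfi1b and Alas2.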
